A study of Mus musculus with 6 samples.

Results

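Transcripts of 10 genes for proteins that the liver secretes into blood plasma were followed in the kidney of mice given cisplatin. The 10 are Alb, Ttr, Rbp4 and Gc, which encode carriers, Fga, Fgb and Fgg, which encode the chains of fibrinogen, and Pzp, Serpina10 and Ambp, which encode protease inhibitors. They were picked by their gene symbols from the 56691 genes in the count files, for their cisplatin against control values in these same 6 libraries. Those values are therefore given as a description with no test.

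The study compared kidneys of C57BL/6 male mice. The cisplatin group (3 mice) received 8 mg/kg cisplatin, a platinum drug toxic to kidney tubules, by intraperitoneal injection once a week for 4 injections, and the control group (3 mice) received the saline vehicle. Mice were 9 weeks old at the first injection, and kidneys were collected at week 7. Total RNA was sequenced, 1 library per mouse, so the libraries hold every cell type of the organ.

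Hepatocytes make most of the protein in plasma, and the genes of this class are known as textbook examples of liver-restricted transcription, driven by factors such as HNF4 and C/EBP. Kidney proximal tubule shares several of these factors. It also takes up the small plasma carriers from the filtrate through the receptors megalin and cubilin, so carrier protein in a tubule cell usually comes from blood, whereas the values here are RNA. Fibrinogen and several protease inhibitors are acute phase proteins in hepatocytes, where interleukin-6 acts through STAT3.

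Counted read pairs numbered 21891855 to 25356523 in cisplatin libraries and 24111688 to 26627554 in control libraries. Pairs that fell in no gene made up 6.09% to 9.32% in cisplatin and 4.63% to 4.86% in control libraries, with cisplatin replicate 1 highest. The labelled tissue was checked with 12 proximal tubule markers, all of which were detected in each library. Their summed level was 4571 to 4825 CPM in cisplatin kidneys, against 31113 to 32005 CPM in control kidneys (CPM, read counts scaled by the library size after TMM normalization). Kap, an androgen-regulated protein of the tubule, supplied 164 to 412 CPM of this in cisplatin and 20737 to 21611 CPM in control kidneys, and without it the sum was 4247 to 4560 CPM in cisplatin and 9502 to 11268 CPM in control kidneys. In bulk tissue, fewer cells of a type and less RNA per cell cannot be told apart.

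All 10 plasma protein genes had enough counts to enter the edgeR fit of 15662 genes. In that fit 6 were called higher in cisplatin kidneys (Gc, Fga, Fgb, Fgg, Serpina10 and Ambp), against 24.5% of all tested genes called higher. The 3 called lower were Alb, Ttr and Pzp, against 22.8% of all tested genes. Rbp4 was not called. The ranges of the groups did not overlap for these 9 genes, with all cisplatin libraries on the upper side for the 6 (30.2% of all tested genes) and on the lower side for the 3 (27.6% of all tested genes). As the genes were chosen on this contrast, nothing is read from these counts.

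The summed level of the 10 genes was 239 to 264 CPM in cisplatin kidneys and 387 to 462 CPM in control kidneys, and its makeup differed almost completely. Ttr and Pzp together supplied 8.30% to 9.50% of the counts in cisplatin libraries, against 90.6% to 92.1% in control libraries. Gc supplied 53.1% to 58.2% in cisplatin libraries and 2.67% to 3.05% in control libraries. Among these 10 genes alone, the vitamin D carrier thus led in cisplatin kidneys, and the thyroid hormone carrier and a macroglobulin led in control kidneys. Some plasma protein genes outside the 10 were more abundant. In cisplatin kidneys Apoe was at 438 CPM and Selenop at 404 CPM, and in control kidneys Selenop was at 2311 CPM and Apob at 683 CPM.

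**Figure D1:**
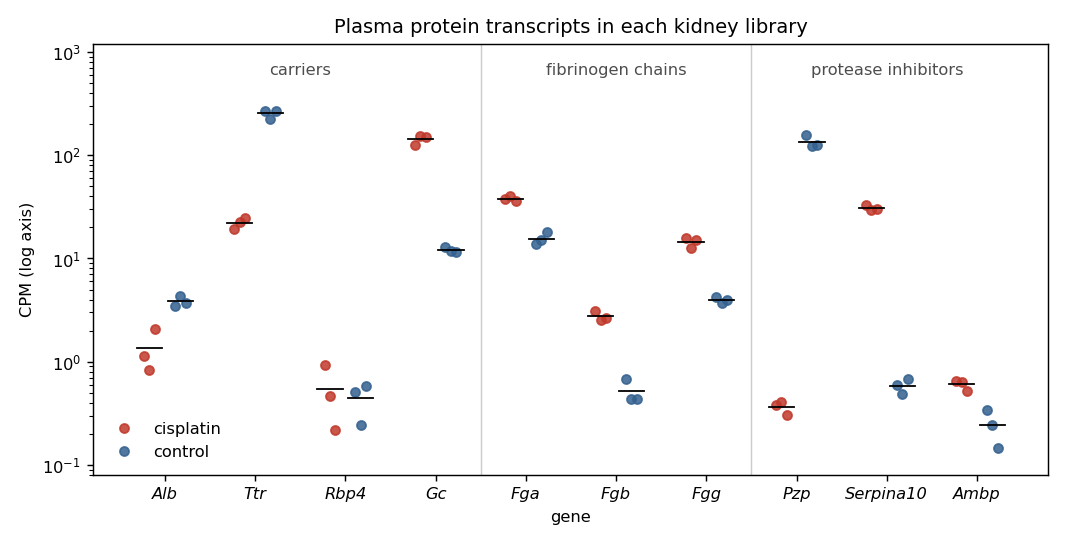
Level of each of the 10 plasma protein genes in each kidney library, in CPM on a log axis, with cisplatin libraries (red) left of control libraries (blue) and a bar at each group mean (n = 3 mice). The points of the groups are apart for 9 genes and intermingled for Rbp4, and the widest gaps are those of Pzp and Serpina10.

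Among the carriers, Gc encodes the vitamin D binding protein, which transports vitamin D metabolites and binds actin released from damaged cells. Gc had 3688, 4593 and 3429 counts in the 3 cisplatin libraries, against 304, 242 and 241 counts in the 3 control libraries. Its level was 144 ± 14.5 CPM in cisplatin kidneys and 12.1 ± 0.638 CPM in control kidneys (SD, n = 3 each), an 11.9-fold higher level with a log2 fold change of 3.57 (SE 0.109). The groups lay far apart, with the lowest cisplatin library at 127 CPM and the highest control library at 12.8 CPM. Gc ranked 88th from the top among the fold changes of all tested genes. Per kb of merged exon it stood above 96.3% of tested coding genes in cisplatin kidneys and above 55.9% in control kidneys.

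Ttr encodes transthyretin, the carrier of thyroxine and the partner of retinol-binding protein in plasma. It was the most abundant of the 10 in control kidneys, with 565, 681 and 562 counts in cisplatin libraries, against 6341, 4669 and 5606 counts in control libraries. The 11.4-fold lower level in cisplatin kidneys (22.3 ± 2.58 CPM, against 255 ± 23.5 CPM in control kidneys, SD, n = 3 each) had a log2 fold change of -3.52 (SE 0.121), the 69th lowest of all tested genes. Even so, Ttr in cisplatin kidneys stood above 90.0% of tested coding genes per kb, and in control kidneys above 99.2%.

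Alb, the gene of serum albumin, was scarce in kidney. Its counts were 33, 25 and 47 in cisplatin libraries, against 83, 89 and 77 in control libraries. Cisplatin replicate 3 was the highest of its group and still below every control library. The mean was 1.34 ± 0.632 CPM in cisplatin kidneys and 3.84 ± 0.439 CPM in control kidneys (SD, n = 3 each), with a log2 fold change of -1.55 (SE 0.273). Without cisplatin replicate 3 the log2 fold change was -1.99. Serpina1a and Serpina1d, near-identical alpha-1-antitrypsin genes of liver and kidney, were also highest in that library among the cisplatin libraries, at 472 and 783 counts. Proximal tubule markers went both ways there. Kap was highest of the cisplatin libraries in replicate 3, at 412 CPM, and Lrp2, the megalin gene, was lowest, at 1387 CPM.

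Rbp4 encodes the plasma carrier of retinol, and its groups overlapped. Counts were 27, 14 and 5 in cisplatin libraries, against 12, 5 and 12 in control libraries, so the cisplatin libraries held both the highest and the lowest level of the 6. The log2 fold change was 0.32 (SE 0.498) and became -0.31 without cisplatin replicate 1. Adipocytes are a known source of Rbp4, and adipocyte markers were also highest in cisplatin replicate 1 among the cisplatin libraries. The adipocyte gene Cfd had 320, 36 and 22 counts in cisplatin libraries, against 133, 145 and 25 in control libraries. Adipoq, which encodes adiponectin, had 34, 0 and 9 counts in cisplatin libraries, against 44, 30 and 5 in control libraries. Fabp4 had 438, 324 and 344 counts in cisplatin and 740, 498 and 548 in control libraries, and fell (adjusted p = 0.00021, edgeR). Summed over 7 adipocyte markers, of which Lep was at 0 in all libraries, the level was 30.5, 12.8 and 17.1 CPM in cisplatin libraries. In control libraries it was 41.0, 34.8 and 28.2 CPM. Cisplatin replicate 2 had more Rbp4 than replicate 3 but a lower adipocyte sum. Control replicate 3 had the highest Rbp4 level of its group and the lowest adipocyte sum. The part of adipose RNA in the Rbp4 values was not tested.

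Gc and Alb belong to 1 gene family with Afp and Afm and lie 1003 kb apart on chromosome 5 (Gc at 89561689 to 89605757 on the minus strand, Alb at 90608647 to 90624696 on the plus strand, GRCm39). The promoter of Gc, the most abundant of the 10 in cisplatin kidneys, is shown from 150 bases before to 50 bases after the annotated start (RefSeq, GRCm38.p6), written 5′ to 3′ on the strand of the gene. Capitals mark the reverse complement of CTGGGAA, the interleukin-6 response element of acute phase genes.
Gc (chr5:89457849-89458048, minus strand): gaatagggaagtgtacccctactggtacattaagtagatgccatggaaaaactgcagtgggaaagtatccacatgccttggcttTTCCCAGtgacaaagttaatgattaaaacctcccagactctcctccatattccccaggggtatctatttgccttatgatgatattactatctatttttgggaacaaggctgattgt
The letters started at position -66, counted from the annotated start. Gc was higher and its relative Alb lower in cisplatin kidneys.

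The 3 fibrinogen chains were all higher in cisplatin kidneys. Fibrinogen is a hexamer of paired alpha, beta and gamma chains, which thrombin turns into the fibrin of clots. The genes sit together on chromosome 3 within 42.1 kb (82915030 to 82957170, GRCm39), with Fgg and Fga on the plus strand and Fgb on the minus strand.

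Fga, the alpha chain gene, had 1088, 1215 and 822 counts in cisplatin libraries, against 326, 311 and 372 in control libraries. Its level was 2.44-fold higher (38.0 ± 2.47 CPM in cisplatin and 15.6 ± 2.13 CPM in control kidneys, SD, n = 3 each), with a log2 fold change of 1.29 (SE 0.111). Fga was the most abundant chain in every library and had the smallest fold change of the 3.

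Fgg, the gamma chain gene, had 461, 380 and 343 counts in cisplatin libraries, against 100, 76 and 82 in control libraries. The groups did not overlap, at 14.5 ± 1.62 CPM in cisplatin and 3.95 ± 0.251 CPM in control kidneys (SD, n = 3 each), a 3.67-fold higher level with a log2 fold change of 1.87 (SE 0.128).

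Fgb, the beta chain gene, was the scarcest chain, with 89, 75 and 61 counts in cisplatin libraries and 16, 9 and 9 counts in control libraries. Its level was 5.24-fold higher (2.75 ± 0.285 CPM in cisplatin and 0.515 ± 0.137 CPM in control kidneys, SD, n = 3 each), and the log2 fold change was 2.39 (SE 0.240). The chain with the fewest transcripts thus had the largest fold change.

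Divided by the length of their merged exons, the 3 chains summed to 18.1 to 19.0 CPM per kb in cisplatin kidneys and 6.18 to 7.32 CPM per kb in control kidneys. Although the protein holds equal numbers of each chain, the transcripts were far from equal. Fga made up 63.9% ± 3.80 of the sum in cisplatin and 73.2% ± 3.67 in control kidneys. Fgg made up 32.3% ± 3.51 in cisplatin and 24.8% ± 2.98 in control kidneys. Fgb made up 3.87% ± 0.340 in cisplatin and 2.07% ± 0.688 in control kidneys (SD, n = 3 each). The share of Fga was lower in every cisplatin library than in any control library, but narrowly so, at no more than 68.2% in cisplatin and no less than 69.1% in control libraries. With strand ignored, the ranges of the Fga share overlapped, since the highest cisplatin library was at 71.9% and the lowest control library at 71.5%. Fga counts per Fgb count were 12.2, 16.2 and 13.5 in cisplatin libraries, against 20.4, 34.6 and 41.3 in control libraries.

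**Figure D2:**
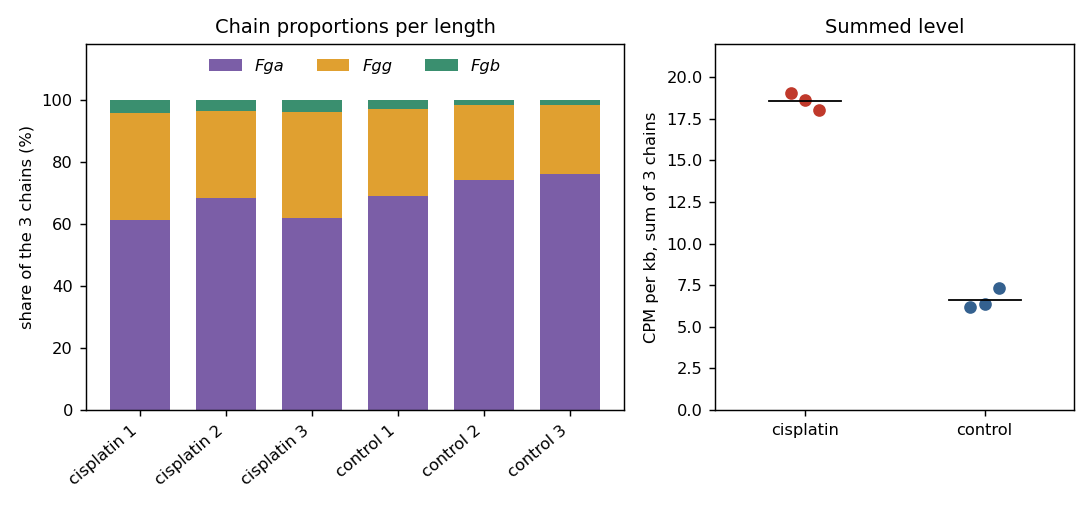
Left, share of each fibrinogen chain in the transcripts of the 3 chains, in percent, after division by merged exon length, for each library. Right, summed level of the 3 chains in CPM per kb, with points for libraries and a bar at each group mean (n = 3 mice), 18.1 to 19.0 in cisplatin and 6.18 to 7.32 in control kidneys. Fga holds the largest share in every library and Fgb the smallest.

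Because the 3 chains were higher together, their promoters are shown as well (RefSeq, GRCm38.p6, strand of the gene). For Fga and Fgb the stretch runs from 250 bases before to 50 bases after the annotated start, and for Fgg from 150 bases before. Capitals mark matches to TTGCNCAA (C/EBP), CTGGGAA (interleukin-6 element) and TTCNNNGAA (STAT) on either strand.
Fga (chr3:83025903-83026202, plus strand): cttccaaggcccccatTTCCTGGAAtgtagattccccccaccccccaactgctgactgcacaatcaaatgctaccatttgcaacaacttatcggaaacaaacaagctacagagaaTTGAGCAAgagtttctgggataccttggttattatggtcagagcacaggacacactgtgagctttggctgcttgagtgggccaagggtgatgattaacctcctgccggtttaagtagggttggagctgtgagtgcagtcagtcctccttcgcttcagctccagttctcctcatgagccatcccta
Fgb (chr3:83049814-83050113, minus strand): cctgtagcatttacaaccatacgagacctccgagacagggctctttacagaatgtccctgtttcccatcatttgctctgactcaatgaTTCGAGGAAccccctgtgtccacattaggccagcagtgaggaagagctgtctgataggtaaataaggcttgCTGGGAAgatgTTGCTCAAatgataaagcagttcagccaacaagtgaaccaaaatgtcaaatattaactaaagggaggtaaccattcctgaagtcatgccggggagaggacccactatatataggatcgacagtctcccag
Fgg (chr3:83007574-83007773, plus strand): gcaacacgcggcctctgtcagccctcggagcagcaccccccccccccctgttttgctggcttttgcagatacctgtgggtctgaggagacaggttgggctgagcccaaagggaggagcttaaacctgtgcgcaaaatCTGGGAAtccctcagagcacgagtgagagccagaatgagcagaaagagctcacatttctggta
In Fga the STAT letters started at position -234 and the C/EBP letters at -135. In Fgb the STAT letters started at -162, the interleukin-6 element at -91 and the C/EBP letters at -80. Fgg held the interleukin-6 element at -13. No single motif of those searched was found in all 3 chains.

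The protease inhibitors held the widest differences in both directions. Pzp encodes the tetrameric macroglobulin of mouse plasma, which traps proteases of many classes. It had 11, 12 and 7 counts in cisplatin libraries, against 3777, 2527 and 2609 counts in control libraries. The level was 0.362 ± 0.0505 CPM in cisplatin and 136 ± 19.96 CPM in control kidneys (SD, n = 3 each), 366-fold lower with a log2 fold change of -8.51 (SE 0.181). This was the 4th lowest log2 fold change of all tested genes. Per kb Pzp stood above 0.697% of tested coding genes in cisplatin kidneys and above 92.4% in control kidneys.

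Serpina10 encodes the protein Z-dependent protease inhibitor, a serpin that inhibits coagulation factor Xa with protein Z as cofactor. It moved the other way, with 961, 877 and 699 counts in cisplatin libraries, against 14, 10 and 14 in control libraries. The level was 52.7-fold higher (31.0 ± 1.90 CPM in cisplatin and 0.583 ± 0.0933 CPM in control kidneys, SD, n = 3 each), with a log2 fold change of 5.72 (SE 0.146), the 24th highest of all tested genes. It stood above 80.7% of tested coding genes per kb in cisplatin kidneys and above 6.36% in control kidneys.

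Ambp encodes a precursor that is cut into alpha-1-microglobulin, a small heme and radical scavenger, and bikunin, a Kunitz-type inhibitor of serine proteases. The gene lies on chromosome 4 (63061512 to 63073036, GRCm39). It was near the limit of detection, with 19, 19 and 12 counts in cisplatin libraries and 8, 5 and 3 counts in control libraries. The mean was 0.605 ± 0.0710 CPM in cisplatin and 0.241 ± 0.0960 CPM in control kidneys (SD, n = 3 each), with a log2 fold change of 1.30 (SE 0.367). Its call was lost in 4 of 17 alternatives.

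**Figure D3:**
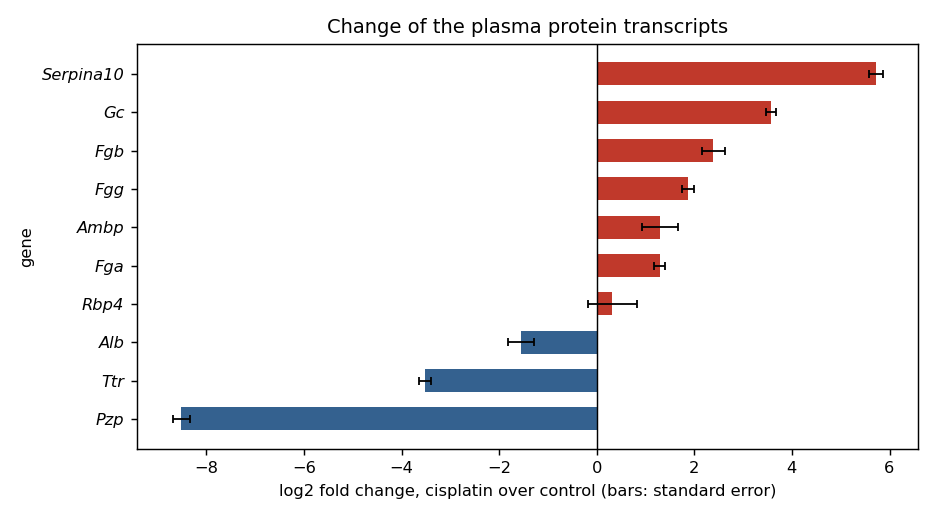
Log2 fold change, cisplatin over control, of the 10 plasma protein genes, with bars for the standard error of the edgeR fit. The values span 5.72 for Serpina10 to -8.51 for Pzp, and the error bar of Rbp4 alone crosses 0.

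Of the 10 genes, 8 were searched for motifs, all but Ttr and Serpina10. Their promoter stretches of 300 bases were searched on both strands beside all 32851 promoters of the table. TTGCNCAA was found in 2 of the 8 (2.94% of all promoters), CTGGGAA in 3 (11.1%), TTCNNNGAA in 2 (8.30%) and TATAAA in 1, Rbp4 (13.6%). CAAAGTCCA, a form of the HNF4 motif, was found in none of the 8 and in 0.475% of all promoters. No matches in these genes overlapped each other, and a match describes letters, not binding.

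The order of the genes by level per kb differed between the groups. In cisplatin kidneys Gc came first at 28.5 CPM per kb, followed by Fga at 11.9 and Ttr at 11.7, whose ranges overlapped. Serpina10 at 6.32 and Fgg at 5.99 CPM per kb overlapped as well. The low end held Fgb at 0.719, Ambp at 0.429, Rbp4 at 0.378, Alb at 0.263 and Pzp at 0.0485 CPM per kb, with overlaps between Ambp, Rbp4 and Alb. In control kidneys the order was Ttr at 133, Pzp at 18.2, Fga at 4.86, Gc at 2.39, Fgg at 1.63 and Alb at 0.753 CPM per kb, each apart from the next. Rbp4 at 0.310, Ambp at 0.171, Fgb at 0.135 and Serpina10 at 0.119 CPM per kb closed the order, and each overlapped the next.

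The spread between mice was small for most of these genes. In cisplatin kidneys the coefficient of variation was 67.0% for Rbp4 and 47.1% for Alb, and 6.14% to 13.9% for the other 8. In control kidneys it was 39.8% for Ambp, 39.7% for Rbp4 and 26.6% for Fgb, and 5.29% to 16.0% for the other 7.

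Alb is among the most abundant messages of liver, and in these kidneys it was one of the scarcer of the 10. Ttr counts per Alb count were 17.1, 27.2 and 11.96 in cisplatin libraries, against 76.4, 52.5 and 72.8 in control libraries. Gc counts per Alb count were 112, 184 and 73.0 in cisplatin libraries, against 3.66, 2.72 and 3.13 in control libraries. Serpina10 counts per Alb count were 29.1, 35.1 and 14.9 in cisplatin libraries, against 0.169, 0.112 and 0.182 in control libraries. Rbp4 counts per Alb count overlapped between the groups, at 0.818, 0.56 and 0.106 in cisplatin and 0.145, 0.0562 and 0.156 in control libraries. Serpina1d, a near-identical copy among the alpha-1-antitrypsin genes, had 17.6, 21.2 and 16.7 counts per Alb count in cisplatin and 17.6, 17.6 and 15.9 in control libraries. The ratios to Alb thus overlapped between the groups for Rbp4 and Serpina1d and did not for Ttr, Gc and Serpina10.

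Most hepatocyte markers were at or near 0. Of 25 markers, 3 (Apoa2, Serpina1a and Serpina1b) are themselves plasma proteins. Among the other 22, Mup3, Mup20, Cyp1a2, Cyp7a1 and Sds were at 0 in all 6 libraries, and 19 had at most 9 counts in any library. The exceptions were Gys2, Baat and Arg1. Gys2, the glycogen synthase of liver, had 93, 86 and 99 counts in cisplatin libraries, against 393, 370 and 338 in control libraries. Baat, a bile acid conjugating enzyme, had 31, 27 and 30 counts in cisplatin and 17, 15 and 18 in control libraries. Arg1, the arginase of the urea cycle, had 9, 24 and 6 counts in cisplatin and 1, 1 and 1 in control libraries. Summed over the 22, the libraries held 146 to 158 counts in cisplatin and 370 to 432 counts in control, and the control sums were above the 241 to 304 counts of Gc in control libraries. Gys2 supplied most of both sums, and without it they were 53 to 72 counts in cisplatin and 31 to 39 counts in control. Of 8 pancreas markers 6 were at 0 in all libraries, and Gcg had 1, 0 and 0 counts in cisplatin and 0 in each control library. Cela1 was abundant, with 614, 768 and 644 counts in cisplatin and 747, 614 and 673 in control libraries. It fell with a log2 fold change of -0.32 (adjusted p = 0.032, edgeR).

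Markers of kidney tubule and macrophages also differed between the groups. Of 12 proximal tubule markers 11 fell and 1 was not called (edgeR, median log2 fold change -1.14), and Kap, the most abundant of them in control kidneys, had a log2 fold change of -6.24 (adjusted p = 2.5e-07, edgeR). The 10 injured tubule markers all rose, and their sum was 2691 to 2930 CPM in cisplatin and 413 to 452 CPM in control kidneys. Of 10 macrophage markers 9 rose, with a sum of 287 to 344 CPM in cisplatin and 99.2 to 122 CPM in control kidneys. The part of these shifts in the values of the 10 genes was not tested.

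Alongside the 10 genes, 86 further genes of plasma proteins were read in 6 lists. Of these, 53 were tested, 18 rose, 22 fell and 13 were not called (edgeR), where 24.5% of all tested genes rose and 22.8% fell. Their median log2 fold change was 0.04, against 0.05 over all tested genes. The shares and the median over all tested genes are also the background for each list below.

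In the serpin list, the family of Serpina10, 3 rose, 3 fell and 4 were not called among 10 tested of 15 (median log2 fold change 0.02, edgeR). Serpina3n, a mouse counterpart of antichymotrypsin, rose with a log2 fold change of 4.34 (adjusted p = 1.9e-07, edgeR), whereas Serpinf2, the inhibitor of plasmin, fell with a log2 fold change of -3.42 (adjusted p = 8e-07, edgeR). Serpina7, the thyroxine-binding globulin that shares its ligand with Ttr, rose with a log2 fold change of 3.85 on 22, 23 and 15 counts in cisplatin and 2, 0 and 1 in control libraries (adjusted p = 0.00018, edgeR). Serpina6, a corticosteroid carrier beside Serpina10 on chromosome 12, had 20, 15 and 8 counts in cisplatin libraries and 0 in each control library, and was not tested.

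The list of macroglobulins, inter-alpha inhibitors and fetuins is nearest to Pzp and Ambp, and of its 10 genes 6 were tested, 3 rose and 3 fell (median log2 fold change 0.53, edgeR). A2m, a relative of Pzp, had 6, 9 and 4 counts in cisplatin and 15, 14 and 8 in control libraries, while Mug1 and Mug2 were at 0 in all libraries. Heavy chains that are joined to bikunin, a product of Ambp, differed among themselves. Itih2 fell with a log2 fold change of -3.08 (adjusted p = 4.4e-06, edgeR), whereas Itih3 rose with a log2 fold change of 1.40 on 38, 53 and 53 counts in cisplatin and 21, 12 and 11 in control libraries (adjusted p = 0.003, edgeR).

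Of 13 other carriers 10 were tested, of which 4 rose, 3 fell and 3 were not called (median log2 fold change 0.43, edgeR). Cp, the copper carrier ceruloplasmin, rose with a log2 fold change of 2.74 (adjusted p = 6.3e-08, edgeR), and Selenop, the selenium carrier, fell with a log2 fold change of -2.52 (adjusted p = 2e-07, edgeR). Afm, the vitamin E binding relative of Alb and Gc, fell with a log2 fold change of -1.22 (adjusted p = 0.0001, edgeR), while Afp, the fetal albumin, was not called at 0.63 (adjusted p = 0.066, edgeR). Of the albumin family, therefore, Gc was higher, Alb was lower and Afm fell. Of 15 apolipoproteins and partners 10 were tested, with 3 risen, 5 fallen and 2 not called (median log2 fold change -0.38, edgeR).

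The coagulation proteins are the plasma partners of fibrinogen and of Serpina10. Of 18 genes 12 were tested, 3 rose, 6 fell and 3 were not called (median log2 fold change -0.26, edgeR). Proz, which encodes the protein Z cofactor of Serpina10, had 53, 68 and 54 counts in cisplatin libraries, against 160, 124 and 122 in control libraries, a log2 fold change of -1.53 (adjusted p = 2e-05, edgeR). The inhibitor was thus higher and its cofactor fell. F2, the gene of prothrombin, whose active form cuts fibrinogen, had 26, 41 and 17 counts in cisplatin and 18, 1 and 19 in control libraries and was not called (adjusted p = 0.24, edgeR).

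Genes that act on fibrinogen in tissue were read in a separate list of 13, all tested, of which 10 rose and 3 were not called (median log2 fold change 0.85, edgeR). F13a1, the factor XIII subunit that cross-links fibrin, rose with a log2 fold change of 3.24 (adjusted p = 5.1e-06, edgeR). F2r, the thrombin receptor, rose with a log2 fold change of 1.37 (adjusted p = 4.3e-06, edgeR). Plau, urokinase, was not called at 0.24 (adjusted p = 0.12, edgeR). F13a1 and Itgam of this list are also expressed by macrophages, whose markers rose in the same libraries.

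Of 15 further acute phase genes of liver, 5 were tested, 2 rose, 2 fell and 1 was not called (median log2 fold change 0.93, edgeR). The serum amyloid A genes (Saa1 to Saa4) and the orosomucoid genes (Orm1 to Orm3) had at most 4 counts in any cisplatin or control library, in kidneys where Fga had 822 to 1215 counts in cisplatin and 311 to 372 counts in control libraries. Lcn2, lipocalin-2, which injured tubules also express, rose with a log2 fold change of 5.86 (adjusted p = 6.8e-08, edgeR), and Lrg1, a glycoprotein of plasma, with a log2 fold change of 1.54 (adjusted p = 0.00022, edgeR). Hp, the hemoglobin-binding haptoglobin, which was read among the carriers, rose as well, with a log2 fold change of 1.51 (adjusted p = 0.001, edgeR). The 2 acute phase genes that fell were Apcs and Mbl1. Apcs had a log2 fold change of -3.71 on 0, 1 and 3 counts in cisplatin and 18, 12 and 16 in control libraries (adjusted p = 0.00045, edgeR). Mbl1 had a log2 fold change of -1.19 (adjusted p = 0.0081, edgeR).

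In the list of interleukin-6 type signalling, which drives fibrinogen in liver, 6 rose, 2 fell and 5 were not called among 13 tested of 16 (median log2 fold change 0.18, edgeR). The list also holds 2 interleukin-1 genes, so these counts are not of interleukin-6 type genes alone. Il1r1 is 1 of the 6 that rose (log2 fold change 1.02, adjusted p = 0.00011, edgeR), and Il1b is 1 of the 5 not called. Socs3, a feedback target of STAT3, rose with a log2 fold change of 2.86 (adjusted p = 1e-06, edgeR), and Stat3 itself with a log2 fold change of 1.13 (adjusted p = 2.3e-05, edgeR). Lif, a cytokine of this family, rose with a log2 fold change of 3.69 on 61, 80 and 30 counts in cisplatin and 1, 2 and 7 in control libraries (adjusted p = 0.00015, edgeR). Il6 had 0, 2 and 0 counts in cisplatin and 0, 1 and 0 in control libraries. The 2 that fell were Il11ra1, with a log2 fold change of -0.69 (adjusted p = 0.00038, edgeR), and Il6st, at -0.38 (adjusted p = 0.014, edgeR). Lifr, Jak1 and Jak2 were among the 5 not called. Without cisplatin replicate 2, 1 gene of this list fell in place of 2.

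Of 17 transcription factors known for control of such genes in liver, 13 were tested, 3 rose, 4 fell and 6 were not called (median log2 fold change -0.29, edgeR). Hnf4a fell with a log2 fold change of -0.59 (adjusted p = 0.00066, edgeR). Cebpd rose with a log2 fold change of 2.12 (adjusted p = 1.1e-05, edgeR), while Cebpa was not called at -0.22 (adjusted p = 0.23, edgeR). With library totals in place of TMM scaling, 5 factors rose and 1 fell.

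**Figure D4:**
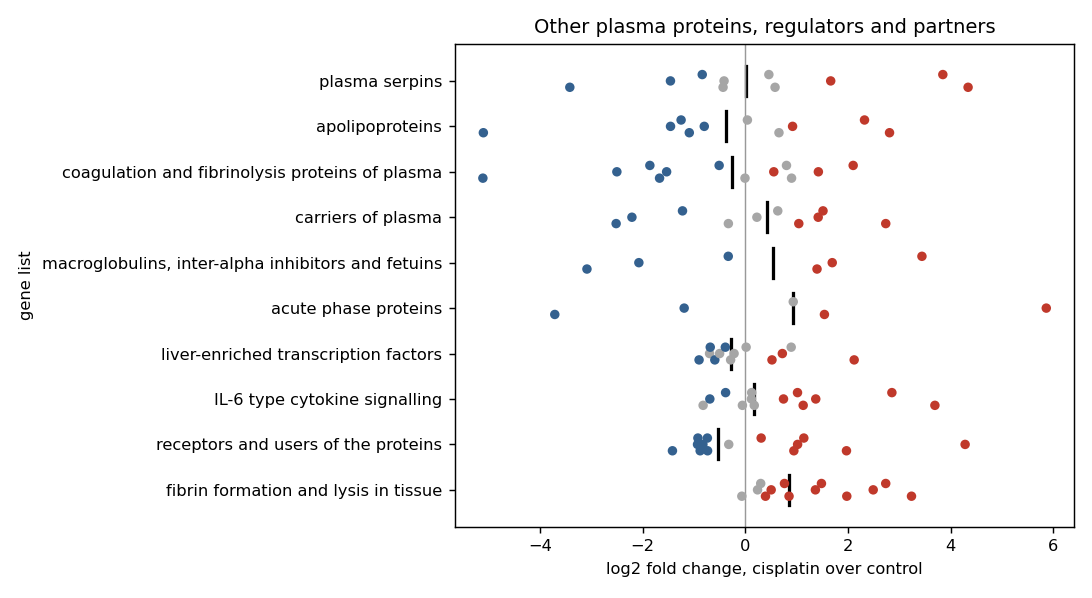
Log2 fold change, cisplatin over control, of each tested gene in 10 lists of plasma proteins, their regulators and their partners. Points are genes, red where they rose, blue where they fell and grey where they were not called (edgeR), and black bars mark list medians. The lists of plasma proteins hold both red and blue points, and that of fibrin formation and lysis has its median at 0.85.

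The genes that handle these proteins in kidney were read in a list of 14, all tested, of which 6 rose, 7 fell and 1 was not called (median log2 fold change -0.53, edgeR). Lrp2, megalin, which takes up Gc, Rbp4 and Alb from the filtrate, had a log2 fold change of -1.42 (adjusted p = 9.7e-06, edgeR). Fcgrt, the receptor that spares albumin from breakdown, had a log2 fold change of -0.92 (adjusted p = 1.3e-05, edgeR). On the vitamin D side, Cyp27b1, which makes the active hormone, rose with a log2 fold change of 4.28 on 736, 1286 and 246 counts in cisplatin and 20, 45 and 23 in control libraries (adjusted p = 6.8e-05, edgeR). Cyp24a1, which degrades it, rose with a log2 fold change of 1.02 (adjusted p = 0.00027, edgeR). Vdr, the vitamin D receptor, fell with a log2 fold change of -0.74 (adjusted p = 0.0001, edgeR). On the retinol side, Stra6, a receptor of Rbp4, rose with a log2 fold change of 1.97 (adjusted p = 0.0011, edgeR), next to an Rbp4 level that was not called. Stra6 was at 2.94 CPM in cisplatin and 0.749 CPM in control kidneys. The more abundant Stra6l fell with a log2 fold change of -0.73 (adjusted p = 0.00036, edgeR). Its level was 11.3 CPM in cisplatin and 18.9 CPM in control kidneys.

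The genes beside the 10 on their chromosomes showed both directions. Within 250 kb there were 57 other coding genes, of which 36 were tested, 11 rose, 10 fell and 15 were not called (edgeR). Over all tested genes 24.5% rose and 22.8% fell, so nothing particular to these loci is read from the counts. The fibrinogen cluster lies between Lrat and Plrg1, and neither was called, with log2 fold changes of -0.32 (adjusted p = 0.32, edgeR) and -0.08 (adjusted p = 0.57, edgeR). Near Serpina10 (chromosome 12, 103580578 to 103597716, GRCm39), Serpina1f had a log2 fold change of 0.35 (adjusted p = 0.02, edgeR). In the same window Serpina1d fell, at -1.46 (adjusted p = 0.00025, edgeR), and so did Serpina1b, at -0.84 (adjusted p = 0.026, edgeR). Pzp lies on chromosome 6 (128459545 to 128503683, GRCm39), where all 8 tested neighbours had log2 fold changes between -2.19 and 1.32, against -8.51 for Pzp. Myof, near Rbp4 (chromosome 19, 38105066 to 38113754, GRCm39), rose with a log2 fold change of 2.61 (adjusted p = 6.2e-07, edgeR).

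**Figure D5:**
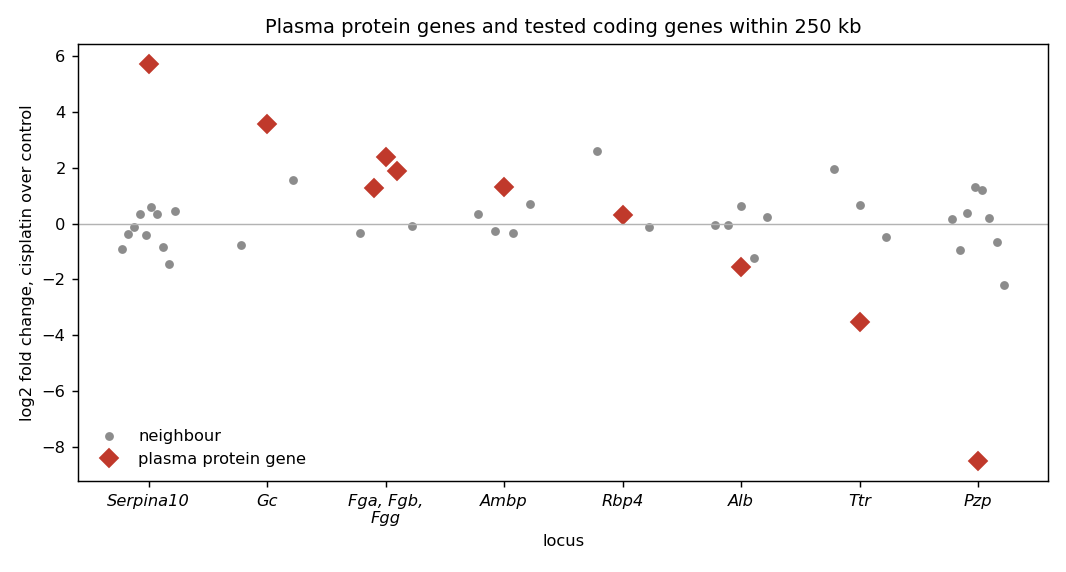
Log2 fold change, cisplatin over control, of the plasma protein genes (red diamonds) and of the tested coding genes within 250 kb of them (grey points, spread sideways for visibility), by locus. The Rbp4 value lies within the range of its neighbours, and at the other 7 loci the plasma protein genes lie outside it. The plasma protein genes were chosen on this contrast and some loci have few tested neighbours, so nothing is read from these positions.

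Overlapping genes were told apart by strand. Ttr, Rbp4, Fgg, Pzp and Serpina10 each overlap 1 annotated gene on the opposite strand, and reads were counted by strand, with 96.7% to 96.8% of stranded counts on the strand of the transcript in cisplatin libraries and 97.1% to 97.2% in control libraries. The largest partner was Ppp4r4, opposite Serpina10, with 143 to 186 counts in cisplatin and 77 to 102 in control libraries. On the strand opposite Gc there were 27 to 35 counts in cisplatin libraries (0.584% to 0.940% of both strands), against 47 to 64 counts in control libraries (16.3% to 20.9%), and with strand ignored the log2 fold change of Gc was 3.29. Alb, Fgb and Rbp4 had 0 counts on the opposite strand in every library.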

How the data were processed

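Total RNA of 3 cisplatin and 3 control kidneys was extracted with a Zymo quick RNA microprep kit and made into libraries with a QIAseq Stranded RNA kit. The authors trimmed read pairs with Cutadapt, aligned them to mm39 with STAR and deposited raw counts per gene without normalization, for both strands together and for each strand. The settings of STAR and the gene models it counted on are not stated in the methods or labels used. Counts on the transcript's strand were used.

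The 10 genes and all lists (16 lists, 212 genes) were chosen with earlier results of these data known. Symbols came from GENCODE vM39 (GRCm39), which matched 56017 of 56691 genes. The test was the quasi-likelihood F test of edgeR 4.0.16 with TMM scaling, after filterByExpr with a minimum of 10 counts and a total of 15, at a Benjamini-Hochberg adjusted p under 0.05 over 15662 genes. TMM factors were 1.05 to 1.26 in cisplatin and 0.844 to 0.894 in control libraries, and the biological coefficient of variation was 11.0%. The fit was tested on simulated data. Levels are CPM of the TMM-scaled library size. Per-kb levels use merged exons. Listed genes named were some of the 4 with the smallest adjusted p per list and direction, and others chosen after their values were seen. Not every gene among those 4 was named. Each mouse gave 1 library, so n counts mice.

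Promoters are RefSeq's (GRCm38.p6), searched on both strands. Some listed items are not reported here. Alternatives were DESeq2 1.42.0, limma-voom (limma 3.58.1), other scalings and filters, counts ignoring strand, a replicate block, stricter thresholds and leaving out each library. Software was R 4.3.3 and Python 3.11.15 with numpy 2.4.6, pandas 2.3.3 and matplotlib 3.10.9.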

Additional observations from a re-analysis of the deposited data

Results flagged for a closer look

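Reads on the strand opposite Fgg, which no comparison uses apart from the counts that ignore strand, averaged 0.972 CPM in cisplatin kidneys and 0.764 CPM in control kidneys. They came to 24 to 28 counts in cisplatin libraries (5.73% to 6.63% of the reads of both strands) and 14 to 20 counts in control libraries (14.6% to 17.4%). The long noncoding gene Gm30097 is annotated on that strand. Fgg itself was at 14.5 CPM in cisplatin and 3.95 CPM in control kidneys. The part of Fgg reads assigned to the wrong strand was not tested.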

How the results depend on the processing

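Alb, Ttr, Gc, Fga, Fgb, Fgg, Pzp and Serpina10 kept their direction and their side of the threshold under each of the 17 or 18 alternatives that gave a value. Their log2 fold changes ran from -1.99 to -1.13 for Alb, -3.62 to -3.10 for Ttr, 3.29 to 3.99 for Gc, 1.198 to 1.72 for Fga, 2.27 to 2.82 for Fgb, 1.76 to 2.30 for Fgg, -8.59 to -8.09 for Pzp and 5.61 to 6.15 for Serpina10. Ambp ran from 1.04 to 1.72 and was not called with DESeq2, at an adjusted p under 0.01, against a fold change of 1.5 and without control replicate 3. Rbp4 ran from -0.31 to 0.76 and was never called. With at least 10 counts in every library, Fgb, Pzp, Rbp4 and Ambp were not tested. The 10 genes were chosen on this contrast in these same libraries, so a call kept under an alternative is no support for it.

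Over all tested genes the median difference on the log2 scale was 0.48 with library totals (0.14 with upper-quartile factors, 0.12 with no low-count filter), against 0.05 with TMM. With library totals 8508 genes were called higher and 1375 lower (3841 and 3578 with TMM). Calls of rise then numbered 5 serpins, 5 apolipoproteins, 5 liver transcription factors (1 fell) and 10 genes of the interleukin-6 list (1 fell). Against a fold change of 1.5, 1396 genes were higher and 1114 lower, 1 acute phase gene fell, 1 transcription factor rose and 1 fell, and 0 interleukin-6 genes fell. With no low-count filter 5 serpins rose. With at least 10 counts in every library 1 gene of the macroglobulin list rose and 1 acute phase gene fell. At an adjusted p under 0.01, 2 transcription factors and 1 interleukin-6 gene fell. Ignoring strand put the Fga share in cisplatin kidneys at 68.0% and that of Fgg at 27.9%, and coding transcript lengths put that of Fgb at 3.03%. Apart from library totals, which set the shift of all genes by construction, and the stricter thresholds, the cause was not tested.

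Leaving out 1 library at a time gave 3000 to 4045 genes higher and 2902 to 4180 lower, and 1 to 2 interleukin-6 genes that fell.

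The groups share replicate numbers but no stated pairing. Deviations of libraries with the same number correlated at 0.133, 0.142 and 0.0997, each the highest for its library, and those of other pairs at -0.126 to -0.026. With the number as a replicate block 4087 genes were higher and 3796 lower. Ambp and Rbp4, at most 8 and 12 counts in control libraries, rest on few reads, and Rbp4 also varied widely between cisplatin mice.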
